A study of Urocitellus parryii with 3 samples.

Results

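Liver small RNA of arctic ground squirrels (Urocitellus parryii) in early arousal, the stage in which hibernating animals rewarm from torpor, was compared with that of post-reproductive animals sampled in summer at normal body temperature (the summer library). The comparison uses 2 of the 3 Illumina libraries of the series, chosen by the stage written beside each read count in the deposited table. The remaining library, from late torpor, is given only as a further value where its level helps to place a difference. All animals were wild-trapped in July and had ordinary laboratory housing with chow. Early arousal is 1 library from the mixed RNA of 4 animals kept at 4 h light and 20 h dark, fitted with temperature transmitters and left to pass through several torpor bouts before decapitation. Post-reproduction is 1 library from 6 animals described under a photoperiod of 16 h light and 8 h dark, given isoflurane before decapitation. Season, light cycle, transmitter implant, anaesthetic and torpor state therefore cannot be told apart. The labels give day 4 of a torpor bout as the sampling time of hibernating animals and do not say how this applies to animals already rewarming.

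Each library began with about 10 µg of total RNA mixed in equal amounts, from which RNA of 18 to 30 nt was cut from a gel and amplified by 15 cycles of PCR. Placed reads numbered 5614441 for post-reproduction and 5611673 for early arousal, and 93.7% and 92.4% of them belonged to 155 miRNAs. With 1 pooled library per stage there is no replicate error: each ratio below compares a pair of libraries, and its 95% interval covers counting error only. In pooled tissue, fewer cells of a type and less RNA per cell cannot be told apart. Levels are in CPM after trimmed mean of M-values scaling over miRNA counts (scaled CPM), and a ratio is early arousal over post-reproduction. An RNA counts as higher or lower when it differed by at least 1.5-fold and had at least 100 reads over both libraries.

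MicroRNAs are short RNAs cut from hairpin precursors by Drosha and Dicer and loaded into Argonaute, where their seed (bases 2 to 8) pairs with target mRNAs and lowers their translation or stability. Their 3′ ends can be trimmed or extended by terminal transferases, which add A or U, and a shifted 5′ end gives another seed. In liver miR-122 dominates the hepatocyte pool and is known for its part in lipid metabolism. The same gel cut also collects pieces of tRNA, Y RNA, ribosomal RNA, small nucleolar RNA and mitochondrial transcripts.

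The following reads carry the differences described here. They were read from the deposited table as DNA letters, 5′ to 3′, each the commonest insert of its group. In the miRNAs the seed is in capitals. Of the sequences printed, the miR-181 members share one seed and the others have seeds that differ from it and from each other.
miR-122-5p: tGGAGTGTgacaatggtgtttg
miR-1-3p: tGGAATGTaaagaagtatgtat
miR-181a-5p: aACATTCAacgctgtcggtg
miR-181b-5p: aACATTCAttgctgtcggtgggtt
miR-181c-5p: aACATTCAacctgtcggtgagttt
miR-708-5p: aAGGAGCTtacaatctagctggg
miR-184-3p: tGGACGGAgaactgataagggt
miR-152-3p: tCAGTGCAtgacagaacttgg
miR-200a-3p: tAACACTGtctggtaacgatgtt
miR-26b-5p: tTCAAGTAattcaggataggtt

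Among RNAs other than miRNAs, pieces of tRNA and mitochondrial rRNA and 1 unnamed fragment, all with wide differences, are shown next; other unnamed groups are given by their values only. Capitals mark the first 18 bases, by which reads were grouped, except in the fragment on GeneScaffold_1735, where they mark the letters TGATGA.
tRNA-Lys-TTT, 5′ end: GCCCGGATAGCTCAGTCGg
tRNA-Lys-CTT, 5′ end: GCCCGGCTAGCTCAGTCGgtagagcatggg
tRNA-Cys, 5′ end: GGGGGTATAGCTCAGTGGtagagcatttga
Mitochondrial 16S rRNA: AAGTAAAAGGAACTCGGCa
Mitochondrial 12S rRNA: AGCATAAGGCGGATTTAGtagta
Fragment on GeneScaffold_1735: cattctgaaggaaaaagtatgTGATGAcat

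Most liver miRNAs stood at similar levels in both libraries, while the muscle-enriched miR-1-3p was higher and miR-184-3p, miR-152-3p, miR-200a-3p and miR-486-5p were lower in early arousal. Of 117 miRNAs compared, 12 (10.3%) were higher and 15 (12.8%) were lower in early arousal. The interval lay wholly beyond 1.5-fold for 4 of the higher and 10 of the lower ones. The log2 ratios had a median of 0.05, quartiles of -0.33 and 0.30, and a range from -1.66 to 1.09. Scaling to miRNA reads without trimming shifted the median log2 ratio by 0.15 and gave 22 higher and 11 lower; scaling to all placed reads shifted it by 0.13 and gave 19 higher and 11 lower. All 12 higher miRNAs stayed past the limit under both of these scalings. Of the lower ones, miR-378a-3p (0.707), miR-140-3p (0.711), miR-30d-5p (0.729) and miR-744-5p (0.679) came within the limit under plain scaling.

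**Figure D1:**
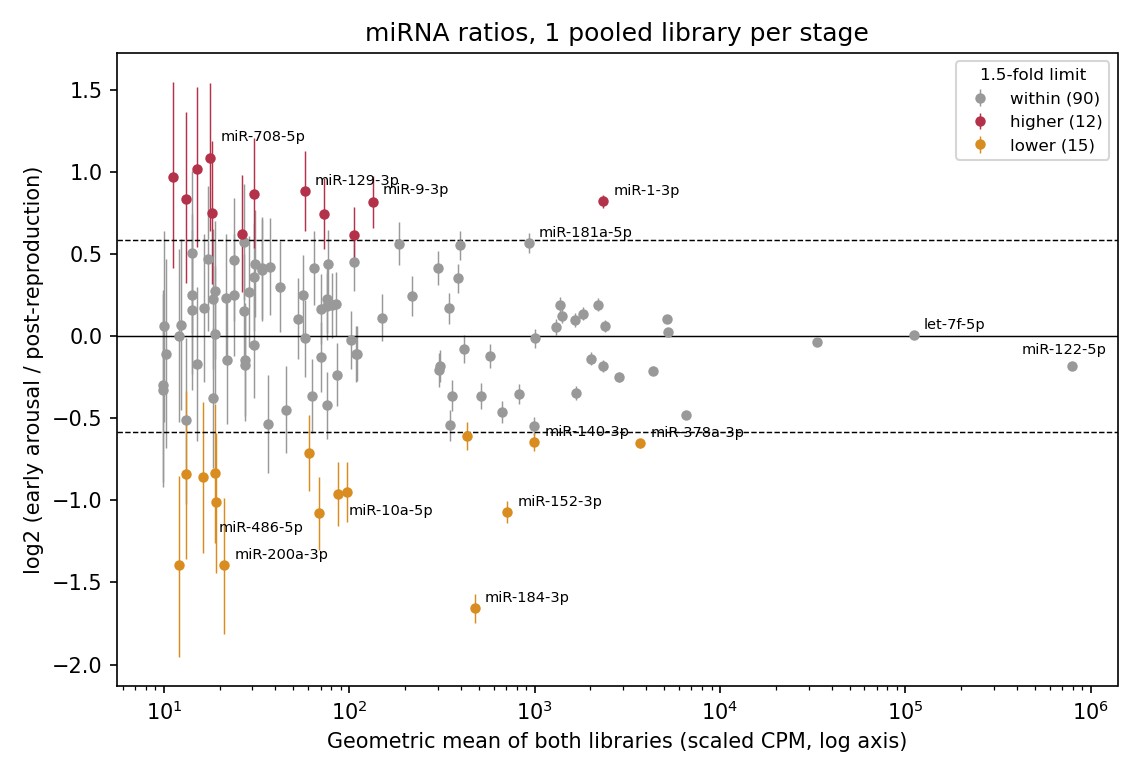
Log2 ratio of early arousal over post-reproduction (vertical axis) against the geometric mean level in both libraries (scaled CPM, log axis) for 117 miRNAs; bars are 95% intervals for counting error and dashed lines mark 1.5-fold. miR-1-3p stands out among abundant miRNAs on the higher side and miR-184-3p and miR-152-3p on the lower side, while miR-122-5p and let-7f-5p lie near 0.

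The most abundant miRNAs set the frame for these differences. miR-122-5p, placed on the plus strand of GeneScaffold_256 from base 347042 to 347063, had 4205895 reads in post-reproduction and 4062934 in early arousal, a ratio of 0.881 (0.879 to 0.882). let-7f-5p, of the let-7 family that restrains growth programmes, had 550101 and 606515 reads and a ratio of 1.0 (1.0 to 1.01). Summed over its 6 measured groups, the let-7 seed had a ratio of 0.982 (0.979 to 0.985), and none of the 6 passed the limit. let-7b-5p was the lowest of them at 0.716 (0.705 to 0.727). The miR-29 seed, known for its collagen targets, stood at 1.01 (0.989 to 1.02), and miR-103-3p and miR-107-3p, linked to insulin sensitivity, stood together at 1.08 (1.06 to 1.09). Plain scaling put miR-122-5p at a log2 ratio of -0.03 against -0.18 with trimming.

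On the higher side, miR-1-3p had by far the most reads. This miRNA of striated muscle had 8765 reads (1758 scaled CPM) in the summer library, 16985 (3105) in early arousal and 12493 (2566) in late torpor. It was 1.77-fold higher in early arousal than in post-reproduction (1.72 to 1.81), and the late torpor level lay between them. miR-206-3p, which has the same seed, had 60 and 66 reads and a ratio of 1.0 (0.696 to 1.45). The muscle partners miR-133a-3p and miR-133b-3p had no placed read in any library, and whether muscle RNA took part in the miR-1-3p difference was not tested.

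The miR-181 family, which is known from lymphocyte development and also occurs in liver, stood above 1 in each of its 3 members, of which 1 passed the limit. miR-181a-5p had 3802 reads in the summer library, 6184 in early arousal and 3734 in late torpor, a ratio of 1.48 (1.42 to 1.54). miR-181b-5p had 1625, 2616 and 1588 reads and a ratio of 1.47 (1.38 to 1.56). The rarer miR-181c-5p had 53, 118 and 63 reads and passed the limit at 2.03 (1.46 to 2.86). Late torpor was close to post-reproduction for all 3 members, so that early arousal was the library that stood apart. Their summed ratio was 1.48 (1.43 to 1.53), next to a median log2 ratio of 0.05 over all miRNAs compared.

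Some miRNAs best known from neurons were higher, and others were not. miR-9-3p, the partner strand of miR-9-5p, had 502 reads in the summer library, 970 in early arousal and 506 in late torpor, a ratio of 1.76 (1.58 to 1.97). miR-129-3p had 211, 427 and 227 reads and a ratio of 1.84 (1.56 to 2.19). Of the 5 compared members of the neural list, miR-9-3p and miR-138-5p (1.53, 1.36 to 1.73) were higher and none was lower, with a median log2 ratio of 0.41. Over all miRNAs compared, 10.3% were higher and the median was 0.05. miR-124-3p, the most neuron-specific of them, lay on the other side at 0.686 (0.642 to 0.732), within the limit. The summed level of the neural markers miR-124-3p, miR-9-5p and miR-9-3p was 785 scaled CPM in post-reproduction and 816 in early arousal. When only reads placed at 1 position were kept and scaled anew, miR-138-5p lay within the limit at 1.46 and miR-129-5p at 1.47. All reads of both were placed at 1 position, so only the scaling moved them (median shift -0.07 in log2 over miRNAs).

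The widest ratios on the higher side rested on few reads. miR-708-5p, encoded in an intron of ODZ4 in mammals, had 61 reads in post-reproduction and 142 in early arousal and was 2.12-fold higher (1.56 to 2.91). miR-873-5p had 40 and 86 reads (1.96, 1.33 to 2.93). Further higher miRNAs were miR-539-3p at 1.82 (1.45 to 2.31), miR-410-3p at 1.79 (1.25 to 2.57) and miR-487b-3p at 1.68 (1.25 to 2.28).

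The lowest ratio belonged to miR-184-3p, a single-copy miRNA known from the eye lens and cornea. It had 4198 reads (842 scaled CPM) in the summer library, 1460 (267) in early arousal and 2468 (507) in late torpor. This made it 3.15-fold lower in early arousal than in post-reproduction (ratio 0.317, 0.298 to 0.337), with late torpor in between. miR-152-3p, which targets the DNA methyltransferase DNMT1, had 5121 reads (1027), 2676 (489) and 2942 (604) in the same order and was 2.10-fold lower (ratio 0.476, 0.454 to 0.499). Both hibernation libraries were low for it. miR-148b-3p, which shares its seed, had 219 and 166 reads and a ratio of 0.691 (0.561 to 0.849), within the limit.

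**Figure D2:**
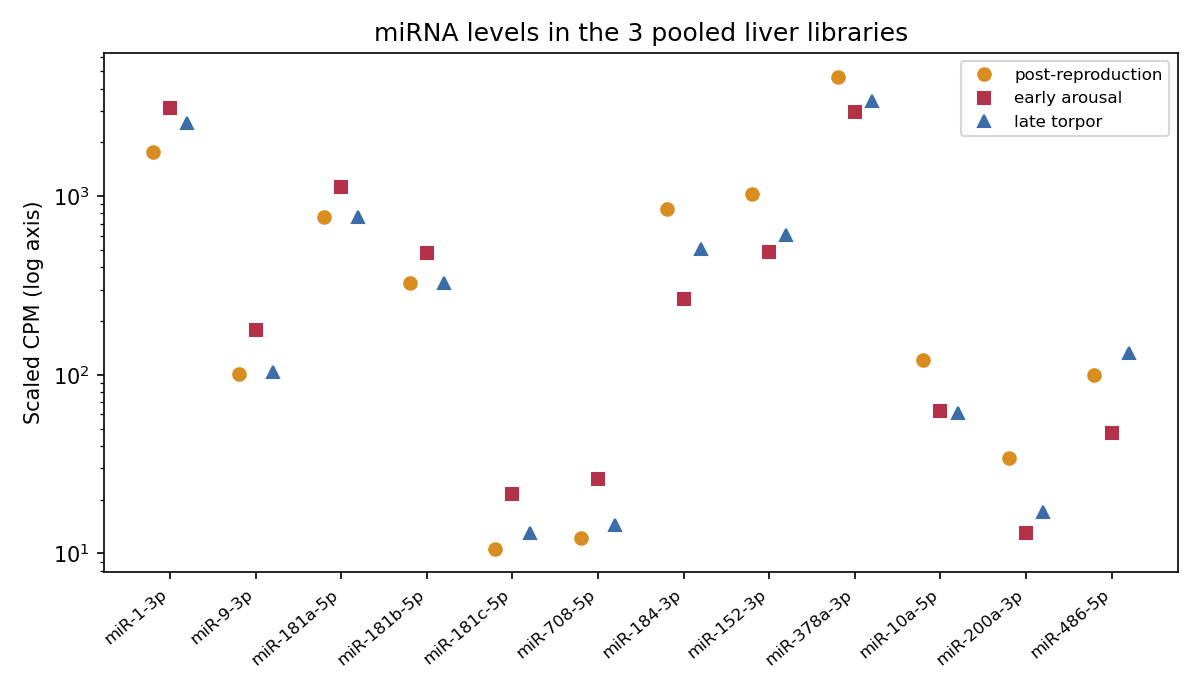
Scaled CPM (log axis) of 12 miRNAs in each of the 3 pooled libraries, 1 point per library, with no replicate error. The miR-181 members, miR-9-3p and miR-708-5p are high in early arousal alone, miR-152-3p, miR-10a-5p and miR-200a-3p are low in both hibernation libraries, and miR-486-5p is low in early arousal alone.

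Red-cell miRNAs split. miR-486-5p, abundant in red cells and in muscle, stood at 99.7 scaled CPM in the summer library, 47.2 in early arousal and 133 in late torpor, a ratio of 0.473 (0.406 to 0.551). Its partner strand miR-486-3p was also lower at 0.381 (0.258 to 0.554), as was miR-144-3p of the miR-451 cluster at 0.552 (0.400 to 0.756). miR-451a itself, the main red-cell miRNA, had 356 and 443 reads and a ratio of 1.13 (0.984 to 1.31). In all, 2 of the 4 listed erythroid miRNAs were lower and none was higher, with a median log2 ratio of -0.48, while 12.8% of all miRNAs compared were lower. Their summed level was 204 scaled CPM in the summer library, 150 in early arousal and 354 in late torpor, and the part of blood content in these values was not tested.

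Epithelial, mesenchymal and leukocyte miRNAs gave mixed pictures. miR-200a-3p, of the miR-200 family that keeps epithelial identity in bile ducts and other epithelia, had 170 reads in the summer library, 71 in early arousal and 83 in late torpor (0.381, 0.284 to 0.505). The summed biliary and epithelial markers, of which only miR-200a-3p and miR-200b-3p had placed reads, went from 45.9 to 17.4 scaled CPM. miR-31-5p, which was listed with epithelial miRNAs but not among those markers, lay on the other side with 1708 reads in the summer library and 2391 in early arousal (1.28, 1.2 to 1.36). Of the 2 epithelial miRNAs compared, 1 was thus lower, and the more abundant one was within the limit. Markers of stellate cells, fibroblasts and smooth muscle summed to 4530 and 4536 scaled CPM, so their total was level although miR-152-3p, which was listed with mesenchymal miRNAs, was lower. Leukocyte markers had 2 of 5 with reads and summed to 54.3 and 62.5 scaled CPM at their listed starts. Most miR-142-5p reads began elsewhere: with starts up to 2 bases away it had 1665 and 1768 reads, and its log2 ratio turned from 0.25 to -0.035. miR-146a-5p, an inflammation-induced miRNA, was lower at 0.561 (0.417 to 0.752). Both endothelial miR-126 strands stayed within the limit, at 1.18 (0.899 to 1.54) for miR-126-5p and 0.796 (0.529 to 1.19) for miR-126-3p, whose log2 ratio turned from -0.33 to 0.15 with starts up to 2 bases away. Of the hepatocyte markers, miR-192-5p and miR-194-5p had no placed read, and miR-122-5p made up nearly the whole of the sum. Since the table holds only placed reads, a 0 there sets no upper level for an RNA whose locus may be missing or altered in the genome used: 14 read groups resembling miR-192-5p held 5914 reads in the summer library and 8548 in early arousal.

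Of the miRNAs tied to lipid and glucose metabolism, 1 of 5 compared was lower, next to 12.8% of all miRNAs, and none was higher. miR-378a-3p, which lies within the gene of the coactivator PGC-1β, had 23256 reads (4664 scaled CPM) in post-reproduction and 16230 (2967) in early arousal, a ratio of 0.636 (0.623 to 0.649). It came within the limit at 0.707 under plain scaling and at 0.698 under scaling to all placed reads. Late torpor was similar to early arousal at 16619 reads (3414 scaled CPM). miR-33-5p, from an intron of the sterol regulator SREBF2, had 466 and 434 reads and a ratio of 0.849 (0.743 to 0.970). The pair miR-27a-3p and miR-27b-3p stood at 0.778 (0.729 to 0.830). The hypoxia-induced miR-210-3p had no placed read. Among further lower miRNAs, miR-10a-5p of a HOX cluster had 607, 342 and 296 reads (0.514, 0.449 to 0.587), miR-449c-5p of ciliated epithelium stood at 0.496 (0.369 to 0.663) and miR-216b-5p, known from pancreas, at 0.559 (0.391 to 0.794). The miR-449 seed was level as a sum, at 1.0 (0.897 to 1.12). Its other members lay on the other side within the limit, miR-449a-5p at 1.14 (0.993 to 1.31) and miR-449b-5p at 1.21 (0.906 to 1.63).

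The early arousal library also carried more base changes at one sequencing position, which touches the reading of near-identical miRNAs. Over 39 abundant miRNAs, reads whose base 19 differed from the mature sequence, with bases 1 to 18 and base 20 matching, made up 0.483% in the summer library (0.477 to 0.489) and 1.59% in early arousal (1.58 to 1.60), compared with 0.288% in late torpor (0.283 to 0.292). The share was higher in early arousal than in post-reproduction for 37 of the 39 miRNAs, and higher in late torpor than in post-reproduction for 17. The median over miRNAs went from 0.456% to 1.69%. Among inserts of at least 22 nt, base 20 went from 0.248% to 0.407% and base 21 from 0.153% to 0.343%, so that over these bases the fold was widest at base 19. Base 22 went from 4.54% to 6.35%, with 5.02% in late torpor, a wider excess in percentage points and a smaller one as a fold. Base 22 is the last base of a 22-nt insert, so its share can hold bases added at the 3′ end as well as base changes.

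**Figure D3:**
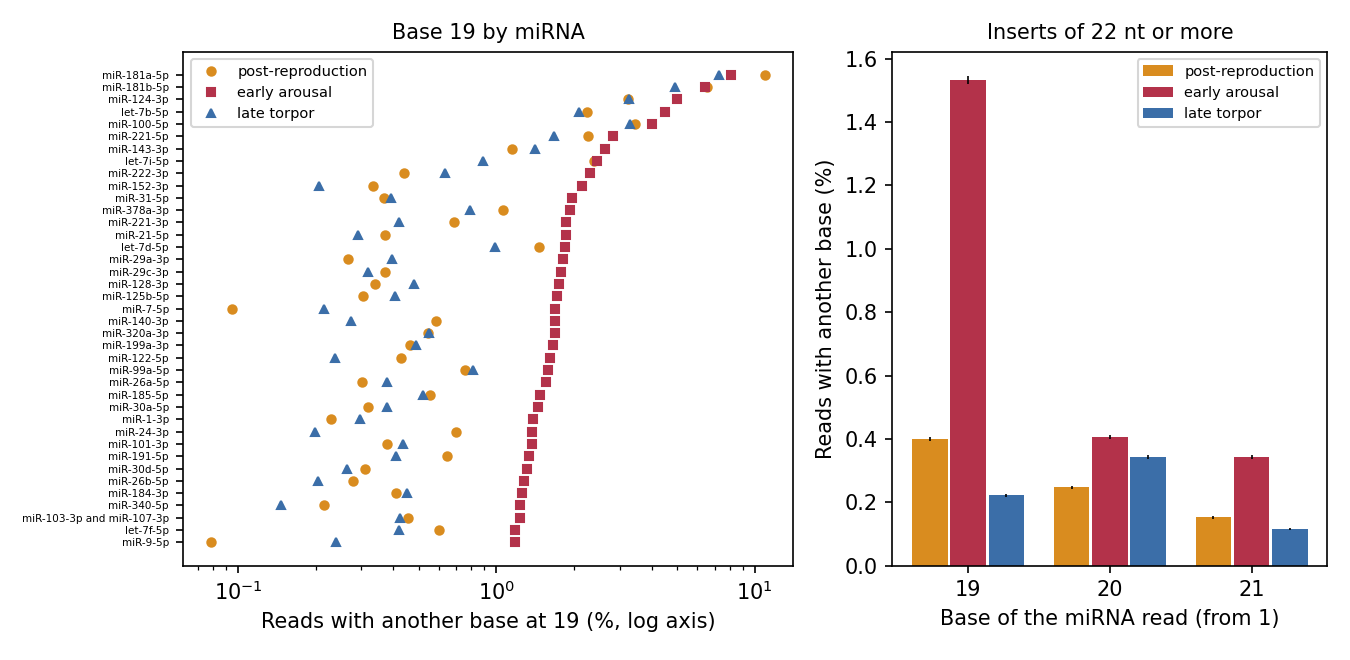
Left, share of reads with another base at position 19 (percent, log axis) for each of 39 miRNAs in the 3 libraries; right, the same share pooled over miRNA inserts of at least 22 nt at bases 19, 20 and 21, with 95% binomial intervals. Early arousal lies above both other libraries for most miRNAs, at 1.53% for pooled base 19 against 0.399% and 0.223%.

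The kind of change was uneven. Where the mature base was T, reads with A went from 0.146% to 0.787% and reads with C from 0.0697% to 0.593%, while reads with G went only from 0.230% to 0.245%. Where it was G, reads with C went from 0.0378% to 0.577%, and where it was A, reads with C went from 0.136% to 0.599%. Substitutions to C and to A were thus the ones that gained most, from each mature base that allowed them.

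The 6 miRNAs with the highest share in early arousal did not all gain. miR-181a-5p had 8.11% in early arousal (7.40 to 8.86) against 11% in post-reproduction (9.94 to 12.1), and miR-181b-5p had 6.42% against 6.51%. These were the 2 of 39 that were not higher. miR-124-3p had 5.01% against 3.24%, let-7b-5p 4.49% against 2.24%, miR-100-5p 3.99% against 3.46% and miR-221-5p 2.83% against 2.26%. miRNAs with little change in summer showed the difference most plainly: miR-9-5p had 1 such read of 1271 in post-reproduction and 22 of 1863 in early arousal.

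Since reads were grouped by bases 1 to 18, base 19 did not decide any miRNA ratio above. Requiring bases 1 to 20 to be identical to the mature sequence left all 12 higher and all 15 lower miRNAs past the limit. Base 19 does split some family members. For let-7a-5p and let-7c-5p, which share their first 18 bases, A (let-7a) made up 60.1% in post-reproduction and 64.3% in early arousal, and G (let-7c) 39.1% and 34.3%. C, which belongs to neither, went from 0.0880% to 0.652%. Late torpor had 65.1% A and 0.0568% C. The part of base changes in this split was not tested. The split of miR-27a-3p and miR-27b-3p was the same in both, with 92.2% T, and that of miR-23a-3p and miR-23b-3p nearly so, with 60.4% and 59.8% A.

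The 3′ ends of miRNAs extended a little further in early arousal. For 40 miRNAs that had 1000 or more inserts in both libraries, the mean insert was longer in early arousal for 30 and shorter for 10, with a median difference of 0.04 nt and a range from -0.21 to 0.20 nt. miR-26b-5p, a miRNA known as a target of uridylation, had 22 nt in 69.0% of inserts in the summer library (68.1 to 70.0) and 55.1% in early arousal (54.2 to 56.1), compared with 57.1% in late torpor, and 23 nt in 22.8%, 35% and 33.6%. Both hibernation libraries therefore held more of the longer form. In let-7i-5p the 23-nt form went from 41.0% to 47.5%, with 47.4% in late torpor, and in miR-378a-3p the 22-nt form went from 30.3% to 22.8%, with 24.2% in late torpor. On the other side, miR-222-3p lost its 25-nt form, from 30.0% to 20.9%, while late torpor held 28.3%.

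Some of the longer ends held bases that were not placed on the genome scaffold. Over inserts of at least 21 nt in 39 miRNAs, the share that ended in 1 unplaced U (read as T) was higher in early arousal for 30 and lower for 7, and the share that ended in 1 unplaced A was higher for 27 and lower for 9. The median differences were 0.33 percentage points for U and 0.37 for A. These counts include miRNAs whose placement stopped short of the usual end. let-7i-5p and miR-21-5p, placed over at most 19 bases, could not show such an end and had 0% in every library. miR-222-3p, placed over at most 21 bases, counted as higher for U at 0.0552% against 0%. miR-26b-5p gained most for U, from 15.6% in post-reproduction (14.8 to 16.4) to 25.3% in early arousal (24.5 to 26.1), with 24.9% in late torpor. miR-26a-5p, with the same seed, went only from 10.5% to 11.2%. miR-143-3p, a smooth muscle miRNA, went from 19.8% U to 16.6% and from 8.18% A to 10.9%, a swap that late torpor shared at 16.5% and 11.6%.

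**Figure D4:**
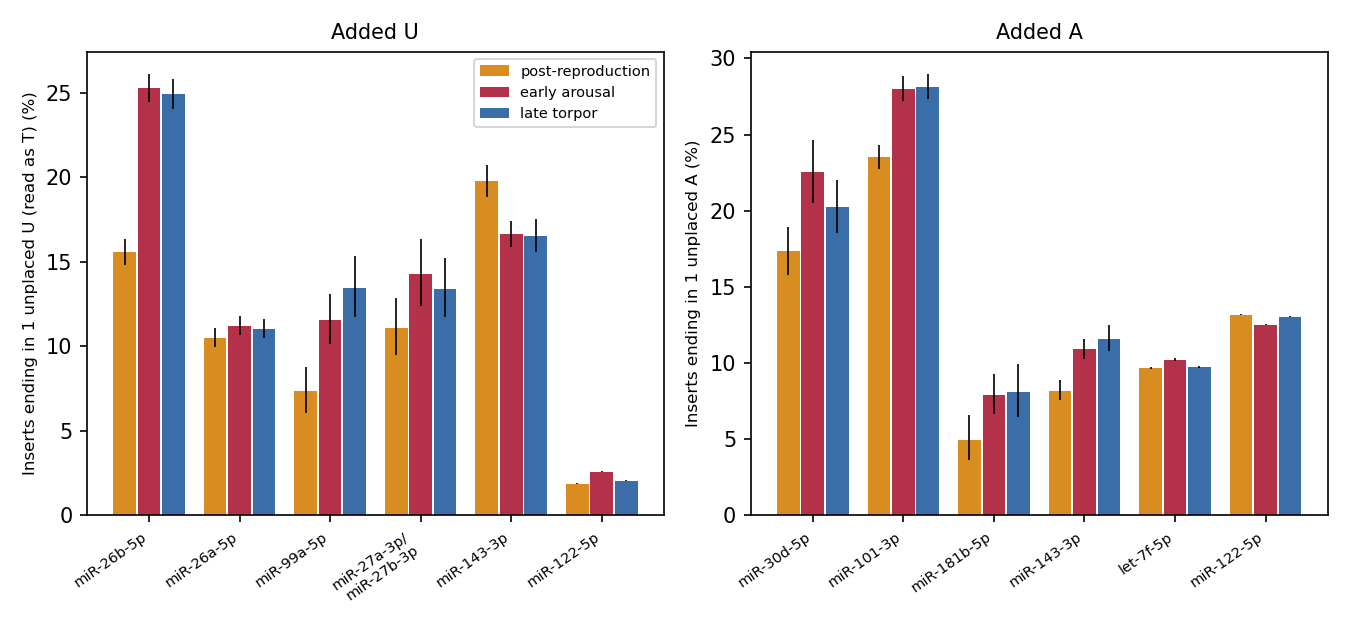
Share of inserts of at least 21 nt that end in 1 unplaced U (left) or A (right), in percent, for selected miRNAs in the 3 libraries; bars show 95% binomial intervals. miR-26b-5p is near 25% U in both hibernation libraries against 15.6% in post-reproduction, while miR-26a-5p is nearly level.

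An unplaced end A was most frequent in miR-124-3p, at 32.9% in post-reproduction and 34.9% in early arousal, and in miR-378a-3p, at 30.5% and 30.9%. miR-124-3p was placed over at most 21 bases, so the last base of its 22-nt inserts was always unplaced. Whether that A was added or encoded there was not tested. The widest differences in the share with A lay in miR-30d-5p and miR-101-3p. miR-101-3p had 23.5% in the summer library (22.7 to 24.3) and 28% in early arousal (27.2 to 28.8), compared with 28.2% in late torpor. miR-30d-5p had 17.3% (15.8 to 18.9), 22.5% (20.5 to 24.6) and 20.2%. In miR-122-5p, whose adenylation is well known in liver, the share with A went the other way, from 13.2% to 12.5%, and the share with U from 1.87% to 2.58%. The part of the raised base changes of the early arousal library in these shares was not tested.

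Start positions were steadier. Among 42 miRNAs, the share of reads that began within 2 bases of, but not at, the mature start was higher in early arousal for 27 and lower for 13, with a median difference of 0.05 percentage points. miR-140-3p differed most, with 69.9% shifted in the summer library (69.2 to 70.5) and 77.4% in early arousal (76.8 to 77.9), compared with 71.0% in late torpor. Its usual form began 1 base later and had 13934 and 14382 reads, while the form that began at the listed start had 6210 and 4356. With starts up to 2 bases away included, miR-140-3p stood at 0.857 and no longer counted as lower. miR-142-5p, a leukocyte miRNA that mostly began 2 bases earlier, had 84.6% shifted in post-reproduction and 81.0% in early arousal. The shifted shares of miR-124-3p were 12.7% and 16.7%, those of miR-199a-3p 13% and 10.7%, and those of miR-101-3p 50.1% and 52.4%.

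Counted by genome position, the wider differences lay outside miRNAs. Of 8395 positions, 1710 (20.4%) were higher and 4604 (54.8%) were lower in early arousal. Only 238 of them were miRNA positions, of which 32 were higher and 40 lower. These counts are led by repeated sequence, since a read placed at several positions counts at each: a single mitochondrial read group stood behind 205 positions. With only reads placed at 1 position, 360 positions remained, 96 higher and 44 lower. Grouped instead by their first 18 bases, 607 groups were compared, of which 156 (25.7%) were higher and 114 (18.8%) were lower. Several groups can be pieces of 1 RNA, so counts of groups below are not counts of separate RNAs.

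Mitochondrial ribosomal RNA fragments showed the widest drop. Fragments of mitochondrial 16S rRNA, the RNA of the large ribosomal subunit of the organelle, had 6513 reads (1306 scaled CPM) in the summer library, 245 (44.8) in early arousal and 61 (12.5) in late torpor. They were 29.2-fold lower in early arousal (ratio 0.0343, 0.0301 to 0.0390), and 15 of their 16 groups were lower, next to 18.8% of all 607 groups. Fragments of 12S rRNA, of the small subunit, had 942, 119 and 20 reads and a ratio of 0.115 (0.0943 to 0.139), with all 5 groups lower. Both hibernation libraries were low for both RNAs, and late torpor was the lowest. The most abundant 16S piece, printed above, had 2878 reads in the summer library, 45 in early arousal and 20 in late torpor.

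Not all mitochondrial RNA fragments dropped. Pieces of mitochondrial tRNA-Tyr had 223 and 43 reads (0.176, 0.124 to 0.245), but the 5′ end of mitochondrial tRNA-Leu(UUR), which is encoded next to 16S rRNA, had 778 reads in the summer library, 1021 in early arousal and 1177 in late torpor, a ratio of 1.2 (1.09 to 1.31). In all, 22 of 25 mitochondrial groups were lower and 1 was higher, next to 18.8% and 25.7% of all 607 groups.

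Nuclear ribosomal RNA fragments differed between RNAs and between parts of 1 RNA. Pieces of 18S rRNA had 4582 reads in the summer library, 2124 in early arousal and 1526 in late torpor (0.423, 0.401 to 0.445), with 23 of 31 groups lower and none higher. 5S rRNA was also lower at 0.452 (0.334 to 0.608). Internal pieces of 28S rRNA had 6152 and 5634 reads (0.835, 0.805 to 0.866), with 6 of 44 groups higher and 10 lower. Of all 607 groups compared, 25.7% were higher and 18.8% were lower. The 5′ end of 28S rRNA stood at 0.975 (0.955 to 0.995), its 3′ end at 1.25 (1.22 to 1.29) and the 5′ end of 5.8S rRNA at 1.07 (0.948 to 1.2). Late torpor had far fewer reads of the 28S 5′ end, at 4333 against 17740 in post-reproduction and 18980 in early arousal.

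**Figure D5:**
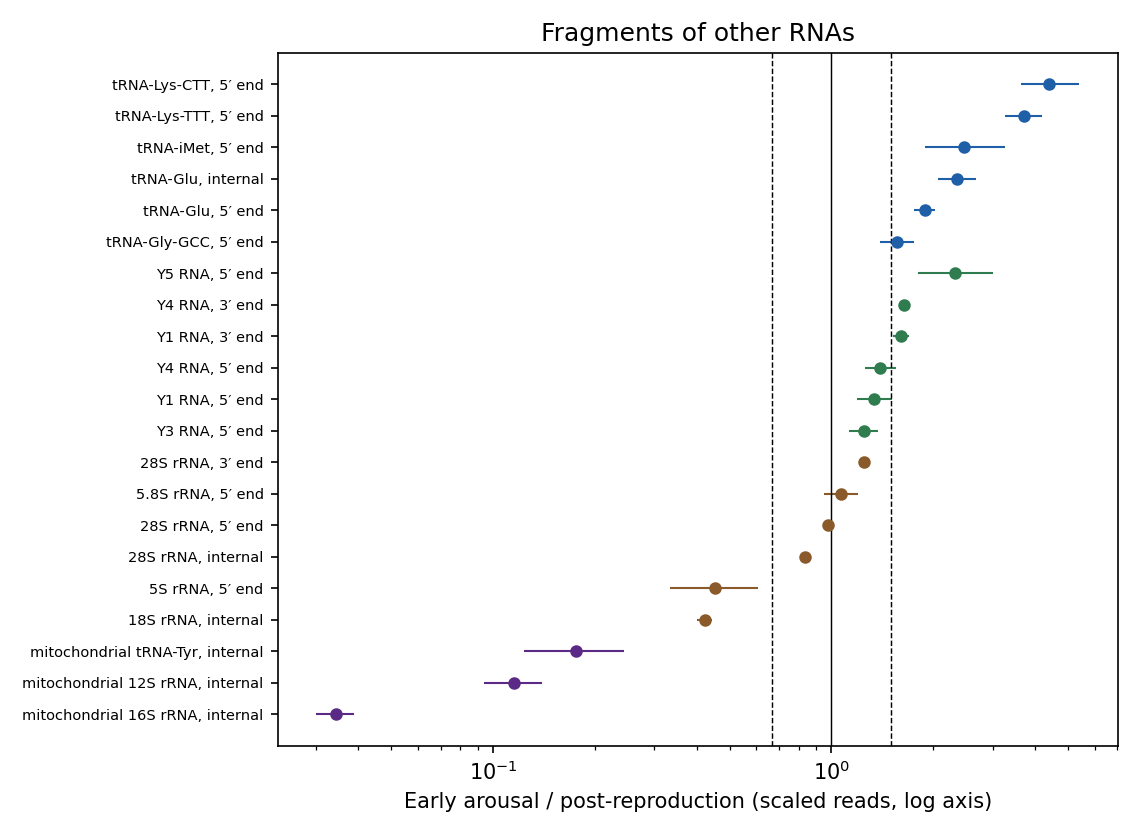
Ratio of early arousal over post-reproduction (log axis) for summed fragments of 21 RNAs or RNA ends, with 95% counting intervals; dashed lines mark 1.5-fold. Nuclear tRNA and Y RNA pieces lie above 1 and 28S and 5.8S rRNA near 1. Below 1 lie 18S, 5S and mitochondrial rRNA and mitochondrial tRNA-Tyr, down to 0.0343 for mitochondrial 16S rRNA.

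Y RNAs, small noncoding partners of the Ro60 protein that are cut to fragments in stressed or dying cells, were higher. The 3′ end of Y4 RNA had 15254 reads (3059 scaled CPM) in the summer library, 27472 (5022) in early arousal and 13424 (2757) in late torpor, a ratio of 1.64 (1.61 to 1.67). The 3′ end of Y1 RNA had 2078, 3670 and 1969 reads and a ratio of 1.61 (1.53 to 1.70). For both, late torpor was like post-reproduction and early arousal stood apart. The 5′ ends lay lower, at 1.4 for Y4, 1.34 for Y1 and 1.25 for Y3, apart from the rare Y5 5′ end with 89 and 226 reads (2.31, 1.80 to 2.99). Of 15 Y RNA groups, 10 were higher and none was lower, next to 25.7% and 18.8% of all 607 groups.

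tRNA fragments were higher as a class, with 3444 reads in the summer library, 7746 in early arousal and 3749 in late torpor (2.05, 1.97 to 2.13). Of 20 tRNA groups, 14 were higher and none was lower, next to 25.7% and 18.8% of all 607 groups. The 5′ end of tRNA-Lys-TTT had 314, 1274 and 649 reads and was 3.70-fold higher (3.27 to 4.2). Its CTT counterpart, which differs at the base given by the token A7C (position counted from the 5′ end, TTT form first), stood at 24.5, 108 and 30 scaled CPM and was 4.41-fold higher (3.62 to 5.40). The 5′ end of tRNA-Glu, one of the commonest tRNA fragments, had 1116, 2311 and 484 reads (1.89, 1.76 to 2.03), and that of the initiator tRNA-iMet had 75, 203 and 35 reads (2.47, 1.88 to 3.26). Some tRNA ends stayed within the limit, such as tRNA-Gly-TCC at 1.25 (1.03 to 1.52) and tRNA-Val at 1.38 (1.15 to 1.64).

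Long inserts moved with these classes. Reads placed over all 30 bases, whose RNA was at least as long as the read, made up 2.06% of reads outside miRNAs and their copies in the summer library, 5.32% in early arousal and 1.85% in late torpor. In the tRNA-Glu 5′ end the share was 16.9%, 43.0% and 34.1%, and in the Y4 3′ end 3.38%, 7.30% and 3.26%. Without such reads the Y RNA class stood at 1.56 and the tRNA class at 1.78, but the tRNA-Glu 5′ end at 1.30 and the tRNA-Gly-GCC 5′ end at 1.42 no longer passed the limit. tRNA-Lys-TTT, which was read mostly as a 19-nt piece, stayed at 3.71. The 3′ end of 28S rRNA had 12.1%, 22.4% and 7.41% of such reads in the same order, and it stood at 1.11 without them. Whether the gel cut of the libraries took part in the other differences was not tested.

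Outside the recognised classes, 94 groups were given no name, of which 41 were higher and 12 lower, next to 25.7% and 18.8% of all 607 groups. The fragment on GeneScaffold_1735 had reads placed at up to 2 positions, of which 1 is given here (minus strand, 305438 to 305467). It had 140 reads in the summer library, 1046 in early arousal and 29 in late torpor. Early arousal was 6.81-fold higher than post-reproduction (5.70 to 8.18). Reads placed over all 30 bases made up 72.1% of this fragment in the summer library and 83.4% in early arousal. The part of long inserts in its ratio was not tested. Another, on GeneScaffold_3572 (plus strand, 36193 to 36222), had 34, 161 and 26 reads (4.32, 2.97 to 6.45). It lies shortly before miR-223-3p (36235 to 36256) on the same strand. Whether it is the partner strand of that miRNA was not tested, and no miRNA or leukocyte value above includes it. The fragment on GeneScaffold_1735 holds the letters TGATGA, which occur in the C box of C/D small nucleolar RNAs, guides of ribose methylation. Searched on the read strand alone, TGATGA stood in 8 of the 94 unnamed groups (8.51%) and in 10 of all 607 (1.65%). Of the 8, 4 were higher, 1 was lower and 3 were within the limit. A match of 6 letters is a description and does not show that an RNA is a small nucleolar RNA.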

How the data were processed

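Small RNA of liver was sequenced as 1 pooled library per stage. The authors deposited 1 table in which, per the file headers, an entry holds a 30-base read, its whole-number read count and its stage, with the placed part of the read in capitals. For the aligner, the genome build and the annotation: not given in the sources used here. Reads with more than 1 position repeat their count, so every distinct read was counted once per stage. The stage in the labels set the groups.

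Reads were grouped by their first 18 bases. Names of the 155 miRNA groups and of 153 groups of other RNAs were recognised from general knowledge and not checked against a database. Near copies of abundant groups were kept apart. Counts were scaled with own code for trimmed means of M-values (30% trimmed on ratio, 5% on abundance), which gave factors of 0.948 for post-reproduction and 1.05 for early arousal. Late torpor was brought to the post-reproduction scale by the same formula. The 3′ adapter was searched with up to 1 mismatch in 5 bases, which gave inserts of 18 to 25 nt. Ratios have exact conditional binomial intervals and shares exact binomial (Clopper-Pearson) 95% intervals (Python 3.11.15, numpy 2.4.6, scipy 1.17.1, figures with matplotlib 3.10.9). Since PCR reads hold no molecular identifiers, intervals cover counting error only. No test between stages was possible. An RNA with no read lies under the level of 3 placed counts, 0.602 scaled CPM in post-reproduction and 0.548 in early arousal, only where its locus is in the genome used. Scaling and calls were tested on simulated data.

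The miRNAs named were the 10 highest and 10 lowest ratios past 1.5-fold, the 10 with most reads in each library, up to 4 members of each list, the 6 largest differences in insert length each way, the 5 largest in start, the 6 highest shares at base 19, and the 6 highest and 6 lowest groups outside miRNAs; others were picked after their values were seen. Members, lists and limits were chosen with earlier results of these data known. Alternatives covered scaling, read assignment, multiple placement, read minimum, fold limit, base-19 matching and adapter matching. Leaving out reads placed over all 30 bases, and rescaling the classes of other RNAs, were added after seeing the data. One pair of read groups that differ in 1 base, 1 of them among the 10 highest and 1 among the 10 lowest ratios, is not reported here.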

Additional observations from a re-analysis of the deposited data

How the results depend on the processing

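Among the miRNAs named and the RNA classes, none past 1.5-fold changed direction under the alternatives run. Within the limit, log2 ratios changed sign for miR-142-5p (0.25 to -0.035) and miR-126-3p (-0.33 to 0.15) with starts within 2 bases. Under plain scaling they did so for let-7a-5p with let-7c-5p (-0.038 to 0.12), miR-144-5p (-0.11 to 0.046), miR-21-5p (to 0.016) and miR-128-3p (to 0.14). Scaling to all placed reads turned let-7a-5p with let-7c-5p (0.097), miR-144-5p (0.028) and miR-128-3p (0.12). miR-128-3p also turned with starts within 2 bases (0.022), let-7f-5p with median of ratios scaling (-0.019) and miR-29a-3p with reads placed at 1 position (-0.042). miR-206-3p, near 0, turned under median of ratios scaling (-0.023), identical bases 1 to 20 (-0.020) and reads placed at 1 position (-0.064). All reads of miR-29a-3p and miR-206-3p were placed at 1 position, so under that setting only the scaling moved them (median shift -0.068 over miRNAs). Against 12 higher and 15 lower miRNAs, plain scaling gave 22 higher, scaling to all placed reads 19, reads placed at 1 position 7, a minimum of 10 reads 21, a minimum of 1000 reads 3 and a 2-fold limit 2. The lower count was 6 with a minimum of 1000 reads and 6 with a 2-fold limit. Reads placed at 1 position left 87 of 117 miRNAs to compare, and a minimum of 1000 reads left 50. Median of ratios scaling kept all 12 and 15 past the limit. Of the positions, 1710 higher and 4604 lower, reads placed at 1 position left 96 and 44, a minimum of 1000 reads 130 and 342, and a 2-fold limit 838 higher. The base-19 share in early arousal was 1.51% without miR-122-5p and 1.58% with bases 20 and 21 matching, and in post-reproduction 0.758% and 0.467%. The count of miRNAs with longer inserts was 31 under both adapter and base-19 alternatives. The rRNA class moved from 0.955 to 1.06 under plain scaling and 1.05 under scaling to all placed reads, and to 0.910 without reads placed over all 30 bases. The Y RNA class stood at 1.79 and the tRNA class at 2.28 under plain scaling. No paired analysis was possible because each stage has 1 pooled library. Depth limits the rarer miRNAs: at about 100 reads over both libraries, intervals span more than 2-fold, as for miR-873-5p (1.33 to 2.93).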

Other observations

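A pair of mitochondrial tRNA-Leu(UUR) read groups that differ in 1 base moved apart. They are printed with the base that differs in capitals, C18T from the C form to the T form, counted from the 5′ end.
Mitochondrial tRNA-Leu(UUR), C form: gttaagatggcagagccCggt
Mitochondrial tRNA-Leu(UUR), T form: gttaagatggcagagccTggt

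The C form had 485 reads in the summer library, 894 in early arousal and 527 in late torpor, and the T form had 293, 127 and 650. The C form thus made up 62.3%, 87.6% and 44.8% of the pair. Different animals were pooled in each library, and the part of inherited differences between them was not tested.

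The 5′ end of 28S rRNA changed in length with little change in level. Inserts of 19 nt made up 21.9% in the summer library (21.2 to 22.5) and 53.5% in early arousal (52.8 to 54.2), compared with 20.3% in late torpor. Inserts of 20 nt made up 55.4%, 28.1% and 21.7%.

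Among positions outside miRNAs, the highest ratio belonged to a read group with 2 reads in the summer library, 108 in early arousal and 72 in late torpor, 49.2-fold higher (13.3 to 412). Its first 8 bases are those of miR-122-5p. On the minus strand of GeneScaffold_5301, 3 unnamed read groups had 1198, 1752 and 407 reads (1.33, 1.24 to 1.44), 191, 640 and 54 (3.05, 2.59 to 3.61), and 123, 362 and 52 (2.68, 2.18 to 3.32). All 3 had the fewest reads in late torpor.

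Near copies of abundant miRNAs, which differ from them in a few bases, made up 2.51% of placed reads in the summer library, 3.19% in early arousal and 2.07% in late torpor. Of 192 such groups, 57 were higher and 24 were lower, next to 25.7% higher and 18.8% lower among all 607 groups. Another 14 groups resembled miR-192-5p, which had no perfect read, and 6 of them were higher and 2 lower. At base 22, uncalled bases (N) made up 0.125% of miRNA inserts in the summer library, 0.000524% in early arousal and 0.225% in late torpor.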
